A study of Sus scrofa with 17 samples.

Results

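The genes described are 10 that serve protein folding in the endoplasmic reticulum (ER) and its stress response: HSPA5, HSP90B1, PDIA4, PDIA6, DNAJB9, HERPUD1, SDF2L1, CALR, XBP1 and MANF. They were found by symbol among the 31908 Ensembl genes of the count table (Sscrofa11.1), and 9 of the 10 had a row of their own. SDF2L1 had none, since its only overlapping row also covered a neighbouring gene and held 18.6% of its bases in SDF2L1. That row counted between 9 and 27 reads per library and was not taken as a measure of SDF2L1.

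The RNA came from the longissimus muscle of Large White × Duroc male piglets that were 28 days old when they entered the trial, had 5 days of adaptation and then 2 weeks of pair-feeding in individual metabolic cages. The control diet was based on wheat, maize and soybean meal, the UL diet held 7% of the green seaweed Ulva lactuca, and the ULU diet held the same seaweed with 0.01% ulvan lyase, an enzyme that cuts ulvan, a polysaccharide of its cell wall. Each library came from 1 piglet, with 6 control, 6 UL and 5 ULU libraries (6 piglets per diet were chosen for RNA). A piglet number marks its library below, and means are given ± SD over the libraries of a diet.

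Proteins that enter the ER are folded there by chaperones and by enzymes that form disulfide bonds. When unfolded proteins accumulate, the sensors IRE1, PERK and ATF6 start the unfolded protein response. IRE1 splices the mRNA of XBP1, which then encodes a transcription factor that raises chaperones and degradation factors, PERK acts through ATF4 and DDIT3, and ATF6 induces chaperones such as HSPA5. In muscle fibres much of the ER is specialized as the sarcoplasmic reticulum, the store of calcium. A count per gene does not separate spliced from unspliced XBP1 mRNA, and in whole muscle fewer cells of a type and less RNA per cell cannot be told apart.

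Between 16137365 and 26546810 reads were counted per library. The muscle label was matched by its markers. The 5 of 10 muscle fibre markers that were found by name or position summed to between 101200 and 269200 CPM. CPM is the count of a gene per 1e6 reads of the TMM-scaled library total. The sums were 2764 to 8275 CPM for 6 fibroblast markers and 20.3 to 142 CPM for 6 leukocyte markers. MYH1, MYH2, MYH4, MYH7 and TTN were not found by name or position and are not in the sum, although the paper lists MYH2 among the most abundant genes. The share of reads on mitochondrial genes was 14.05% to 15.9% in control, 8.64% to 14.8% in UL and 8.002% to 11.6% in ULU, without overlap between ULU and control. ULU piglet 43 had the deepest library, the lowest TMM factor (0.765, against 0.925 to 1.22 in the others) and the highest sum of muscle fibre markers, 269200 CPM against at most 191600.

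With edgeR in its main setting (all 17 libraries, TMM scaling, diet as the only term), no gene of the 9 reached a log2(fold change) of 1 in either direction. XBP1 was the only one of the 9 genes called in that setting in any comparison. Its mean fell in ULU vs control from 86.6 ± 23.5 CPM to 52.7 ± 5.09 CPM, and the mean in UL, 52.8 ± 7.05 CPM, was close to that in ULU. The chaperones HSPA5, HSP90B1 and PDIA4 and the secreted factor MANF had log2(fold change) values between -0.20 and 0.04 in both seaweed diets against control. HERPUD1 and DNAJB9 had lower means, and CALR and PDIA6 higher means, in both seaweed diets than in control, without a call. Both comparisons with control use the same control libraries, so their values are not independent.

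Across all 14203 genes tested with edgeR, 2.98% were called in ULU vs control at an adjusted p under 0.05, beside 1 of the 9 genes here. In UL vs control 0 of the 9 were called, beside 0% of all genes, and in ULU vs UL 0 of the 9, beside 0.0352%. At an unadjusted p under 0.05, 4 of the 9 passed in UL vs control (10.8% of all genes), 3 of the 9 in ULU vs control (18.9%) and 0 of the 9 in ULU vs UL (10.8%). The values of the diets did not overlap for 1 of the 9 genes in UL vs control (0.852% of all genes), for 1 of the 9 in ULU vs control (3.39%) and for 0 of the 9 in ULU vs UL (1.75%). The median log2(fold change) of the 9 genes was -0.13 in UL vs control (all genes -0.003), -0.09 in ULU vs control (all genes -0.03) and 0.01 in ULU vs UL (all genes -0.02). Of the 423 genes called in ULU vs control, 282 were higher and 141 lower. Scaling by the library total alone moved the median of all genes to -0.21 and called a set of 416 genes, 65 higher and 351 lower. Under that scaling HSP90B1 and MANF were at -0.16 and -0.12, which relative to that median are 0.05 and 0.09, and XBP1 at -0.87, relative to it -0.66. With DESeq2 on the 2 diets compared, the calls were CALR and XBP1 in UL vs control, XBP1 in ULU vs control and 0 of the 9 in ULU vs UL. Beside these, DESeq2 called 149 of the 10209 genes it gave an adjusted p in UL vs control. The same setting called 825 of 11500 genes in ULU vs control and 246 of 3951 in ULU vs UL.

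**Figure D1:**
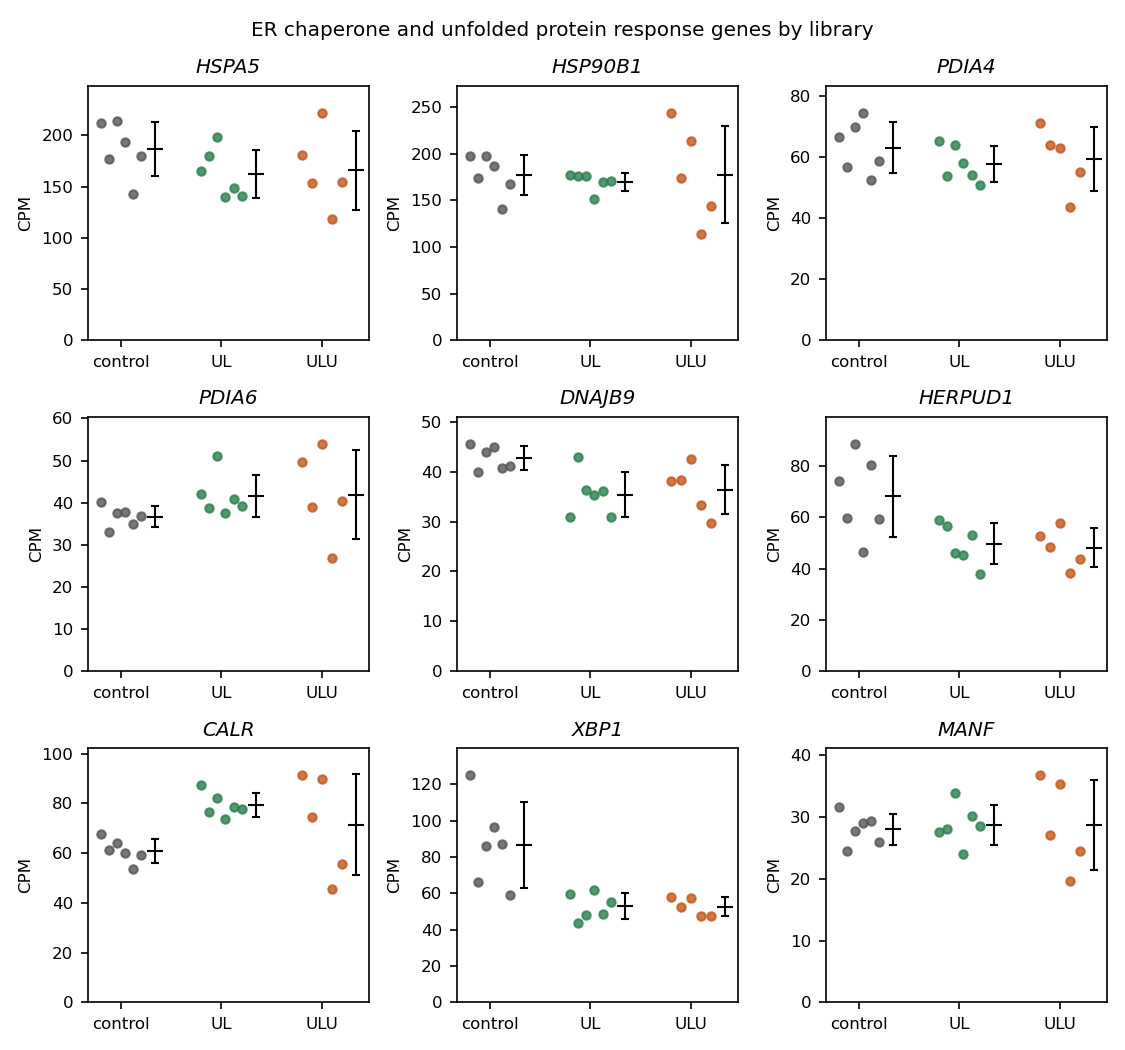
Expression of the 9 measured genes in CPM (linear axes from 0), with 1 point per library and the mean with its SD in black for 6 control, 6 UL and 5 ULU libraries. The ULU points of XBP1 lie below every control point, and the UL points of CALR lie above every control point.

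The order of the levels per kilobase of the counted gene model was HSPA5, HSP90B1, CALR, MANF, PDIA4, XBP1, HERPUD1, PDIA6 and DNAJB9. The mean level per kilobase over the 17 libraries was 67.3 ± 11.7 CPM (SD) for HSPA5 and 7.36 ± 0.972 CPM for DNAJB9. HSPA5 was above HSP90B1, HSP90B1 above CALR, and CALR above MANF in 17 of 17 libraries. MANF was above PDIA4 in only 8 of 17 libraries and PDIA6 above DNAJB9 in 8 of 17, so these neighbours in the order did not differ beyond their spread. Between them, PDIA4 was above XBP1 in 15, XBP1 above HERPUD1 in 16 and HERPUD1 above PDIA6 in 12 of 17 libraries. The counted models of several genes reach beyond the RefSeq gene of the same assembly. Of their bases, 24.1% lay within it for DNAJB9, 34.2% for XBP1, 41.4% for HERPUD1 and 46.5% for PDIA6. The share was 81.1% for PDIA4 and 88.3% for CALR, against at least 95.9% for HSPA5, HSP90B1 and MANF. The models of HERPUD1 and PDIA6 also had bases within the spans of SLC12A3 and ATP6V1C2. Levels per kilobase of DNAJB9, XBP1, HERPUD1, PDIA6, PDIA4 and CALR depend on the length of the counted model. Reads counted on the bases outside a RefSeq gene were not set apart here.

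XBP1 (ENSSSCG00000030996, chromosome 14, 46008377 to 46017036, minus strand) encodes the transcription factor of the IRE1 branch. In control its lowest, median and highest CPM were 58.95, 86.7 and 124.9, and in UL 43.9, 52.1 and 61.5. The 5 ULU libraries had 58.2, 52.6, 57.3, 47.4 and 47.8 CPM. Every ULU library was below the lowest control library, while the highest UL libraries, piglets 27 and 30, overlapped with control piglet 26, the lowest of its diet. Control was the diet with the widest spread, with a coefficient of variation of 27.1% against 13.3% in UL and 9.66% in ULU, and control piglet 21 was the highest library.

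The log2(fold change) of XBP1 in ULU vs control was -0.72 (SE 0.156, 95% interval -1.05 to -0.39, adjusted p = 0.0222). In UL vs control it was -0.71 (SE 0.148, 95% interval -1.02 to -0.40, adjusted p = 0.138), and in ULU vs UL it was -0.01 (95% interval -0.33 to 0.32). By edgeR's adjusted p the difference from control was called in ULU and not in UL, although the unadjusted p was smaller in UL, and DESeq2 also called it in UL (adjusted p = 0.0091 on the 2 diets and 0.0036 on all libraries). The difference between the seaweed diets themselves was not called (adjusted p = 0.996). The adjusted p in ULU vs control was 0.0551 without ULU piglet 43, 0.058 with edgeR on the 2 diets alone, 0.178 with the library total as a covariate, 0.186 with the share of trimmed reads that were counted as a covariate and 0.195 with the mitochondrial share as a covariate. The direction was kept in each of these settings, with log2(fold change) values from -0.95 to -0.68. Of all genes, 423 were called in ULU vs control without a covariate, and 12, 6 and 8 with these covariates in that order. The mitochondrial share did not overlap between ULU and control, so that covariate and the diet cannot be well separated.

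XBP1 is also strongly expressed in plasma cells, whose markers were therefore set beside it. The summed level of the 5 plasma cell markers ranged from 8.85 to 20.3 CPM in control, 7.57 to 12.5 CPM in UL and 9.81 to 14.8 CPM in ULU, which overlap. In ULU vs control 0 of the 4 plasma cell markers tested were called by edgeR, with 1 at an unadjusted p under 0.05, and 0 by DESeq2 on the 2 diets. The same counts held in UL vs control. The log2(fold change) was negative for 4 of the 4 in ULU vs control and for 3 of the 4 in UL vs control. Those at the unadjusted threshold were TNFRSF17 in ULU (-1.62, edgeR adjusted p = 0.21) and JCHAIN in UL (-0.65, edgeR adjusted p = 0.357). TNFRSF17 was low, with a mean of 0.785 CPM in control. DERL3 was too low to be tested and was at 0 in at least 1 library. Of the 6 leukocyte markers, 0 were called by either tool and 1, PTPRC, which encodes the pan-leukocyte antigen CD45, passed the unadjusted threshold, with a log2(fold change) of -1.04 (adjusted p = 0.191). The part of these cells in the XBP1 values was not tested.

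HSPA5 (ENSSSCG00000005601, chromosome 1, 265930045 to 265934904, minus strand) encodes BiP, the main Hsp70 chaperone of the ER, which also holds the stress sensors inactive. Its lowest, median and highest CPM were 142.6, 186.6 and 214.0 in control and 139.5, 157.0 and 197.9 in UL. The ULU libraries had 181.2, 153.4, 221.5, 118.4 and 154.6 CPM. All diets overlapped, with the highest and the lowest value of the 17 libraries both in ULU, in piglets 42 and 43. Between diets its log2(fold change) was -0.20 (95% interval -0.50 to 0.09, adjusted p = 0.647) in UL vs control and -0.17 (95% interval -0.48 to 0.14, adjusted p = 0.571) in ULU vs control.

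HSP90B1 (ENSSSCG00000000849, chromosome 5, 80511507 to 80531005, minus strand) encodes GRP94, the Hsp90 chaperone of the ER. It overlaps the gene C5H12orf73 and no strand setting is given for the counts, so reads of both cannot be told apart there. Control libraries lay between 140.9 and 197.6 CPM (median 180.8), and UL libraries between 151.7 and 177.1 CPM (median 173.3). The ULU libraries had 243.5, 173.7, 214.0, 113.7 and 143.8 CPM. The ULU values thus reached both above and below those of control and UL, with a coefficient of variation of 29.4% against 12.2% in control and 5.66% in UL. The means differed little, with a log2(fold change) of -0.06 (95% interval -0.36 to 0.24, adjusted p = 0.919) in UL vs control and 0.003 (95% interval -0.31 to 0.32, adjusted p = 0.995) in ULU vs control.

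CALR (ENSSSCG00000013746, chromosome 2, 66098225 to 66102340, minus strand) encodes calreticulin, a lectin chaperone that folds glycoproteins and binds calcium in the ER lumen. Its lowest, median and highest CPM were 53.5, 60.5 and 67.8 in control and 73.7, 78.2 and 87.2 in UL. The ULU libraries had 91.3, 74.5, 89.8, 45.7 and 55.8 CPM. Every UL library was above every control library, whereas ULU was split, with piglets 40, 41 and 42 above all controls, piglet 43 below them and piglet 44 among them. In UL vs control the log2(fold change) was 0.38 (SE 0.137, 95% interval 0.09 to 0.67, adjusted p = 0.325), which is not a call in edgeR, while DESeq2 on the 2 diets gave an adjusted p of 0.00448. DESeq2 on all libraries gave an adjusted p of 0.176 and edgeR on the 2 diets 0.172, neither of them a call. With the mitochondrial share as a covariate in edgeR the log2(fold change) was 0.15 (adjusted p = 0.849). In ULU vs control that of CALR was 0.23 (95% interval -0.07 to 0.53, adjusted p = 0.412).

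DNAJB9 (ENSSSCG00000016653, chromosome 18, 36549544 to 36584130, minus strand) encodes ERdj4, a co-chaperone of BiP that is induced by spliced XBP1. Control libraries lay between 39.9 and 45.5 CPM (median 42.5), and UL libraries between 30.9 and 42.95 CPM (median 35.7). The ULU libraries had 38.2, 38.4, 42.4, 33.2 and 29.7 CPM. In UL, piglet 28 was within the control range and the other 5 libraries were below it, and in ULU only piglet 42 reached the control range. For DNAJB9 the log2(fold change) was -0.27 (95% interval -0.48 to -0.06, adjusted p = 0.346) in UL vs control and -0.23 (95% interval -0.45 to -0.01, adjusted p = 0.249) in ULU vs control.

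HERPUD1 (ENSSSCG00000040663, chromosome 6, 18844576 to 18913424, plus strand) encodes a membrane protein that organizes the degradation of misfolded ER proteins. Its lowest, median and highest CPM were 46.4, 66.9 and 88.4 in control and 38.1, 49.5 and 59.1 in UL. The ULU libraries had 52.6, 48.4, 57.6, 38.3 and 43.9 CPM. Control piglet 24, at 46.4 CPM, lay among the seaweed libraries and the other 5 controls were above all of them. For HERPUD1 the log2(fold change) was -0.45 (SE 0.150, 95% interval -0.77 to -0.14, adjusted p = 0.275) in UL vs control and -0.50 (SE 0.158, 95% interval -0.83 to -0.17, adjusted p = 0.0864) in ULU vs control. DESeq2 on all libraries gave an adjusted p of 0.042 for the latter, and scaling by the library total alone gave 0.0454. The counted HERPUD1 model had more bases within SLC12A3 than within HERPUD1, and reads of the neighbour were not set apart.

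The protein disulfide isomerases PDIA4 and PDIA6 form and rearrange disulfide bonds, and PDIA6 also acts on the sensor IRE1. PDIA4 (ENSSSCG00000015453, chromosome 9, 109252010 to 109280249, plus strand) ranged from 52.3 to 74.2 CPM in control, 50.7 to 65.1 CPM in UL and 43.7 to 71.0 CPM in ULU. PDIA6 (ENSSSCG00000008633, chromosome 3, 125751970 to 125776955, plus strand) ranged from 33.0 to 40.2 CPM in control, 37.6 to 51.1 CPM in UL and 26.8 to 53.9 CPM in ULU. The diets overlapped for both genes. The counted PDIA6 model had more bases within ATP6V1C2 than within PDIA6, and reads of the neighbour were not set apart. PDIA4 had a log2(fold change) of -0.13 (95% interval -0.38 to 0.12) in UL vs control and -0.09 (95% interval -0.35 to 0.17) in ULU vs control. That of PDIA6 was 0.18 (95% interval -0.09 to 0.46) in UL vs control and 0.19 (95% interval -0.10 to 0.48) in ULU vs control.

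MANF (ENSSSCG00000032914, chromosome 13, 33658255 to 33662261, plus strand) encodes a small protein of the ER lumen that is secreted under stress. It ranged from 24.6 to 31.6 CPM in control, 24.0 to 33.9 CPM in UL and 19.7 to 36.7 CPM in ULU. The ULU range enclosed those of control and UL. The mean differed from control by a log2(fold change) of 0.04 (95% interval -0.24 to 0.31) in UL vs control and 0.03 (95% interval -0.26 to 0.33) in ULU vs control.

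In ULU vs UL, where the diets differ only in the ulvan lyase, all 9 genes overlapped and the log2(fold change) values lay between -0.15 (CALR, 95% interval -0.45 to 0.15) and 0.06 (HSP90B1, 95% interval -0.25 to 0.38). The smallest adjusted p of the 9 genes was 0.78. A p above the threshold does not show that the diets act alike, and the intervals of the 9 genes reach from -0.45 to 0.38 on the log2 scale.

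**Figure D2:**
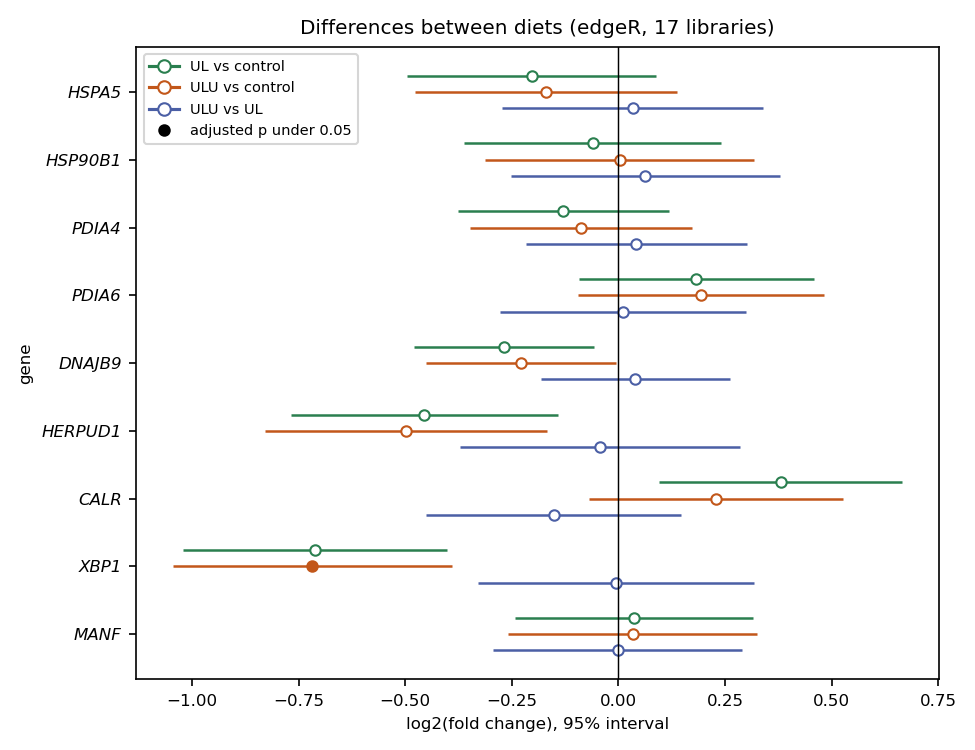
Difference between diets of each gene as log2(fold change), in UL vs control (green), ULU vs control (orange) and ULU vs UL (blue), with its 95% interval from edgeR on 17 libraries and filled points for an adjusted p under 0.05. Only XBP1 in ULU vs control, at -0.72, is filled, and all intervals of ULU vs UL span 0.

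Between piglets on the same diet, most of the chaperones varied with HSPA5. Deviations of log2 CPM from the diet mean were compared with those of HSPA5 over the 17 libraries, in 12 relations (SDF2L1 had no row). HSPA5 varied most closely with PDIA6 (Pearson's r = 0.84, permutation adjusted p = 0.00036, Spearman's rho = 0.79, permutation adjusted p = 0.00168) and HSP90B1 (r = 0.82, permutation adjusted p = 0.00054, rho = 0.84, permutation adjusted p = 0.00072). Lower values were found for CALR (r = 0.77, rho = 0.68, permutation adjusted p = 0.0016 and 0.0155), PDIA4 (r = 0.74, rho = 0.63, permutation adjusted p = 0.00189 and 0.0243), MANF (r = 0.72, rho = 0.57, permutation adjusted p = 0.00331 and 0.0411) and DNAJB9 (r = 0.60, rho = 0.61, permutation adjusted p = 0.0226 and 0.0245). The libraries share their depth and composition across genes, so these relations describe the libraries as well as the genes. The share of all genes that vary as closely with HSPA5 is not given here, so the relations are not shown to be particular to these genes. The permutations shuffled the deviations across diets, although the diet means had been removed and HSPA5, HSP90B1 and CALR were more spread in ULU. The permutation p values may therefore be too small, which matters most for the values near 0.05.

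HERPUD1 (r = 0.40, rho = 0.41, permutation adjusted p = 0.196 and 0.157) and XBP1 (r = 0.20, rho = 0.13, permutation adjusted p = 0.544 and 0.66) did not pass. Neither did the genes of the PERK branch. These were ATF4 (r = -0.32, rho = -0.41, permutation adjusted p = 0.326 and 0.157), DDIT3 (r = 0.24, rho = 0.25, permutation adjusted p = 0.457 and 0.449), ATF3 (r = 0.15, rho = 0.18, permutation adjusted p = 0.606 and 0.587) and TRIB3 (r = 0.02, rho = 0.09, permutation adjusted p = 0.948 and 0.729). DDIT3 and TRIB3 were low, with control means of 1.28 and 3.67 CPM, and TRIB3 reached 0 CPM in control. Counting error therefore limits what the relations of DDIT3 and TRIB3 show. Without control piglet 25, where HSPA5 was at its lowest in control and HERPUD1 at 80.5 CPM, r of HERPUD1 was 0.61 (permutation adjusted p = 0.0221).

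The libraries farthest from the median of HSPA5 were ULU piglets 42 and 43. Without both, r was 0.71 for HSP90B1 (permutation adjusted p = 0.0218), 0.70 for PDIA6 (0.0218 by permutation) and 0.68 for PDIA4 (0.0234 by permutation). It was 0.55 for CALR (permutation adjusted p = 0.0946), 0.49 for MANF (0.126 by permutation) and 0.48 for DNAJB9 (0.126 by permutation), so these 3 relations did not pass without both piglets. It was 0.19 for HERPUD1, 0.09 for XBP1, -0.21 for ATF4, 0.15 for DDIT3, 0.49 for ATF3 and -0.24 for TRIB3, and none of these passed (permutation adjusted p of at least 0.126). In the 12 control and UL libraries alone, a choice made after the data had been seen, r was 0.85 for HSP90B1, 0.73 for CALR, 0.70 for PDIA4 and 0.69 for PDIA6, the 4 relations that passed (permutation adjusted p of 0.00408 for HSP90B1 and 0.0374 for the others), and 0.52 for DNAJB9 and 0.44 for MANF. CALR thus passed without any ULU library, among fewer libraries, and DNAJB9 and MANF did not.

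**Figure D3:**
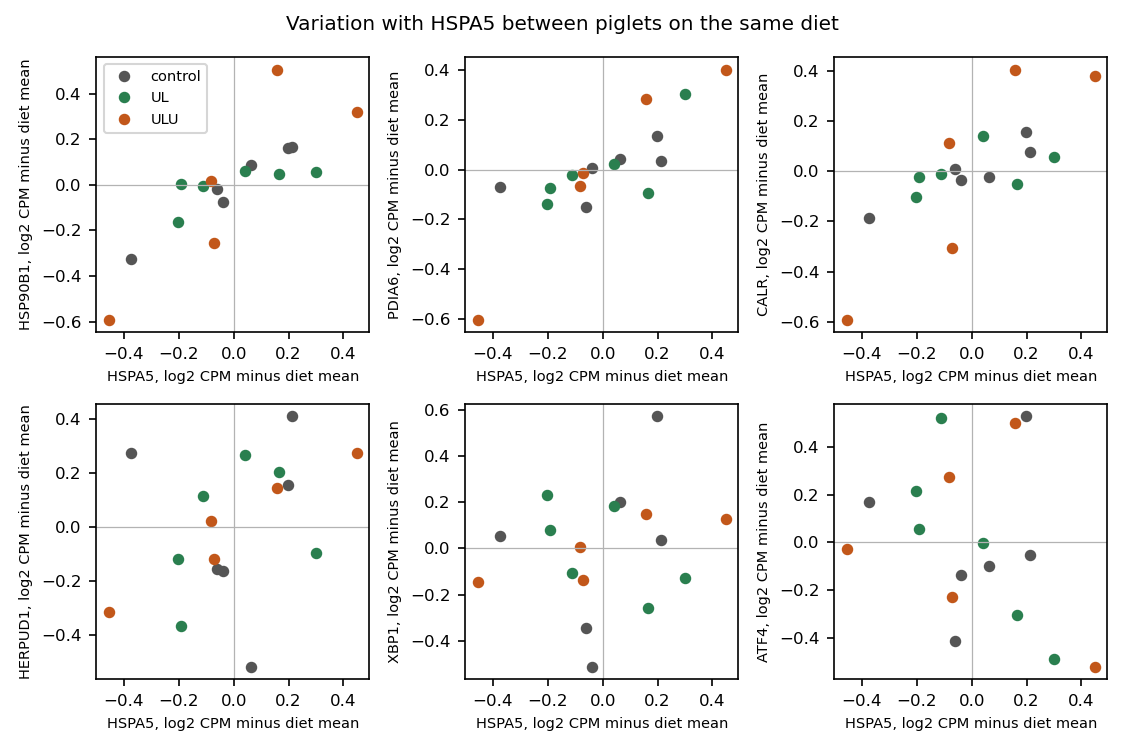
Deviation of log2 CPM from the diet mean for HSPA5 (x axis) and for HSP90B1, PDIA6, CALR, HERPUD1, XBP1 and ATF4 (y axes), with 1 point per library coloured by diet. HSP90B1, PDIA6 and CALR rise with HSPA5 (r of 0.82, 0.84 and 0.77), while XBP1 (r = 0.20) and ATF4 (r = -0.32) are scattered.

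The libraries that stood farthest apart were in ULU. Piglet 43 was the lowest of the 17 libraries for 6 of the 9 genes (HSPA5, HSP90B1, PDIA4, PDIA6, CALR and MANF) and the lowest of its diet for 8 of the 9, and with scaling by the library total alone it was the lowest of the 17 for 9 of the 9. Its median deviation from the diet mean was -0.46 on the log2 scale. Piglets 40 and 42 were above the diet mean for 9 of the 9 genes, with median deviations of 0.28 and 0.32, and held the highest of the 17 values for 3 and 2 genes. The summed level of the 9 genes was 486.9 CPM in ULU piglet 43 and 834.6 CPM in ULU piglet 42, against 661.8 to 860.0 CPM in control and 626.4 to 735.5 CPM in UL. In control, piglet 21 was above the diet mean for 9 of the 9 genes.

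**Figure D4:**
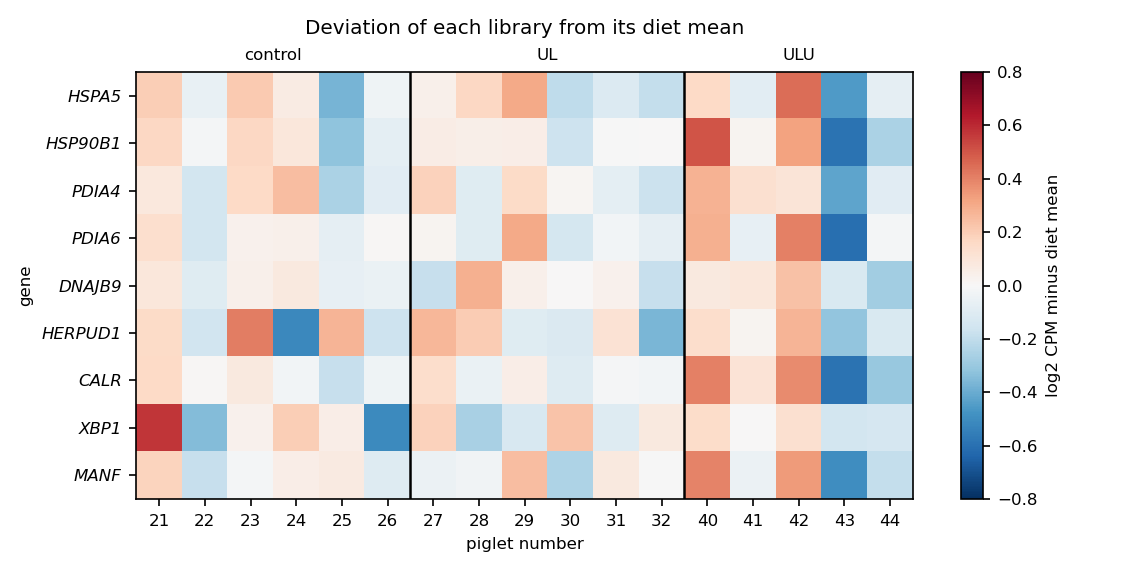
Colour map of log2 CPM minus the diet mean for the 9 genes (rows) in the 17 libraries (columns, by piglet number and diet). ULU piglet 43 is blue and ULU piglets 40 and 42 are red across the rows, and the darkest cells of XBP1 are in control piglets 21 and 26.

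The 5 other named genes whose deviations were most like the mean of the 9 standardized genes, among 11029 genes with a symbol, were GPX8 (r = 0.90), PDZD11 (r = 0.88), MESD (r = 0.87), KDELR2 (r = 0.85) and ST7 (r = 0.84), over 17 libraries. GPX8 encodes a peroxidase of the ER membrane, MESD an ER chaperone of lipoprotein receptors and KDELR2 a receptor that returns chaperones to the ER. Their log2(fold change) in ULU vs control lay between -0.15 (ST7, adjusted p = 0.545) and 0.25 (GPX8, adjusted p = 0.37), and none of the 5 was called in any comparison.

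Other genes of the same pathways were taken from fixed lists. Over all genes, 2.98% were called by edgeR in ULU vs control, 18.9% passed the unadjusted threshold and 3.39% did not overlap. In UL vs control these shares were 0%, 10.8% and 0.852%. Of 25 further ER folding factors, 0 were called by edgeR in UL vs control or in ULU vs control, with 3 and 2 at an unadjusted p under 0.05, all with lower means in the seaweed diet. DESeq2 on the 2 diets called 0 in each comparison, and DESeq2 on all libraries called 1, FKBP14, in ULU vs control (adjusted p = 0.0451). The smallest p values in ULU vs control were those of FKBP14, a prolyl isomerase of the ER (log2(fold change) -0.52, adjusted p = 0.0926), DNAJC3, a co-chaperone of BiP (-0.45, adjusted p = 0.12), and P4HB, the classical protein disulfide isomerase (-0.26, adjusted p = 0.331). The median log2(fold change) of the list was -0.06 in both comparisons.

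Of 16 sensors and transcription factors of the stress response, 1 was called higher and 1 lower in ULU vs control, and 0 in UL vs control, where 1 was higher and 3 were lower at an unadjusted p under 0.05. ATF3, a stress-induced transcription factor downstream of ATF4, fell by 3.46 on the log2 scale (SE 0.620, adjusted p = 0.00898) in ULU vs control. Its lowest, median and highest CPM were 19.3, 119.6 and 226.7 in control, 7.35, 21.3 and 62.8 in UL, and 4.25, 8.56 and 19.4 in ULU, so that the highest ULU library just reached the lowest control. In UL vs control ATF3 had a log2(fold change) of -2.17 (adjusted p = 0.155, and 0.0387 with DESeq2 on the 2 diets). NFE2L1, a factor anchored in the ER membrane that induces proteasome genes, rose by 0.45 in ULU vs control (adjusted p = 0.0337), from 41.4 ± 4.69 CPM to 56.6 ± 6.22 CPM, without overlap. The NFE2L1 call was lost without any one of control piglets 21, 22, 23 and 24 and ULU piglets 40, 42 and 43 (adjusted p of 0.0522 to 0.0953), with edgeR on the 2 diets (0.0742), without a filter (0.0556) and with scaling by the library total alone, at a log2(fold change) of 0.25 (adjusted p = 0.307).

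ATF4 itself had 622.4 ± 145.2 CPM in control and 618.5 ± 170.5 CPM in ULU, a log2(fold change) of -0.01 (SE 0.1999, adjusted p = 0.986). Its targets DDIT3 and TRIB3, which act in cell death and in feedback on the response, were low. DDIT3 was at 1.28 ± 0.587 CPM in control and 0.573 ± 0.345 CPM in ULU (log2(fold change) -1.17, adjusted p = 0.11). TRIB3 was at 3.67 ± 3.19 CPM in control and 1.34 ± 0.924 CPM in ULU (log2(fold change) -1.46, adjusted p = 0.363), with no read in 1 control library.

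Of 18 genes of ER-associated degradation tested, 0 were called by edgeR in ULU vs control, with 1 higher and 1 lower at an unadjusted p under 0.05, and 0 by DESeq2 on the 2 diets. HERPUD2, a relative of HERPUD1, had a log2(fold change) of 0.25 (adjusted p = 0.143), EDEM1, which takes misfolded glycoproteins out of folding, one of -0.48 (adjusted p = 0.129), and UFD1, a partner of the p97 segregase, one of 0.26 (adjusted p = 0.266). HERPUD2 did not overlap between ULU (46.4 to 53.5 CPM) and control (35.3 to 46.2 CPM). In ULU vs UL edgeR called 0 genes of this list. DESeq2 called 1 there, higher in ULU, both on the 2 diets and on all libraries.

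Of 16 genes of translocation into the ER and signal peptide cleavage, 1 was called in ULU vs control. SEC63, which couples BiP to the translocation channel, fell by 0.44 on the log2 scale (SE 0.0975, adjusted p = 0.0241), from 26.9 ± 2.48 CPM to 19.9 ± 2.24 CPM. Every ULU library was below every control and every UL library. In ULU vs UL the log2(fold change) of SEC63 was -0.32 (adjusted p = 0.254). The call in ULU vs control was lost without control piglet 23 or 24 or ULU piglet 40 (adjusted p of 0.0521 to 0.0664), with edgeR on the 2 diets (0.0698) and without a filter (0.063). In UL vs control edgeR called 0 genes of this list, and DESeq2 on the 2 diets called 1, higher in UL.

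For comparison outside the ER, 0 of 11 cytosolic and mitochondrial chaperones were called by edgeR in ULU vs control, with 1 at an unadjusted p under 0.05. This was TRAP1, the mitochondrial Hsp90 (log2(fold change) 0.66, adjusted p = 0.0793), which DESeq2 on the 2 diets called (adjusted p = 0.0221). HSPA8, the constitutive cytosolic Hsp70, had a log2(fold change) of 0.17 (adjusted p = 0.689) and HSPD1, the mitochondrial Hsp60, one of 0.27 (adjusted p = 0.547).

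Of 8 sarcoplasmic reticulum genes tested, 2 were called higher in ULU vs control, beside 2.98% of all genes called in either direction. At an unadjusted p under 0.05, 7 of the 8 were higher (18.9% of all genes in either direction). The median log2(fold change) of the list was 0.41. CASQ2 and RYR1 of the list were not found by name or position. ATP2A1, the calcium pump of fast fibres, rose from 3304 ± 312.9 CPM to 5188 ± 996.2 CPM, by 0.65 (adjusted p = 0.0236), and SRL, the calcium-binding sarcalumenin, rose from 286.7 ± 34.1 CPM to 478.0 ± 61.5 CPM, by 0.74 (adjusted p = 0.00836). The muscle fibre marker TNNT3, troponin T of fast fibres, rose by 0.66 (adjusted p = 0.028) in the same comparison, as 1 of the 5 muscle fibre markers tested. The ATP2A1 call was lost without control piglet 24 or ULU piglet 43 or 44 (adjusted p of 0.0511 to 0.0664), with edgeR on the 2 diets (0.0526) and with the library total alone (0.0547). That of TNNT3 was lost without control piglet 22, 23 or 26 or ULU piglet 40, 41 or 43 (adjusted p of 0.0516 to 0.0652), with edgeR on the 2 diets (0.0752) and without a filter (0.0536). With the library total, the counted share or the mitochondrial share as a covariate, none of ATF3, NFE2L1, SEC63, ATP2A1, SRL and TNNT3 was called (adjusted p of 0.0819 to 0.411). Their log2(fold change) kept its direction with these covariates, at -4.19 to -2.51 for ATF3, 0.34 to 0.47 for NFE2L1, -0.41 to -0.37 for SEC63, 0.61 to 0.63 for ATP2A1, 0.58 to 0.72 for SRL and 0.61 to 0.64 for TNNT3. The calls over all genes went from 423 to 12, 6 and 8 with these covariates, so the lost calls are not particular to these genes. The mitochondrial share did not overlap between ULU and control, so its part and that of the diet cannot be well separated.

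Markers of other cells were not called in ULU vs control by edgeR or DESeq2. The median log2(fold change) was -0.33 for 6 fibroblast markers (2 lower at an unadjusted p under 0.05), -0.53 for 6 leukocyte markers (1 lower), -0.36 for 4 plasma cell markers (1 lower), -1.36 for 3 adipocyte markers (0 at that threshold) and 0.04 for 4 endothelial markers (0 at that threshold). The median of the 5 muscle fibre markers was 0.55. Summed levels overlapped between ULU and control for each marker list, and their part in the values of the 9 genes was not tested.

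**Figure D5:**
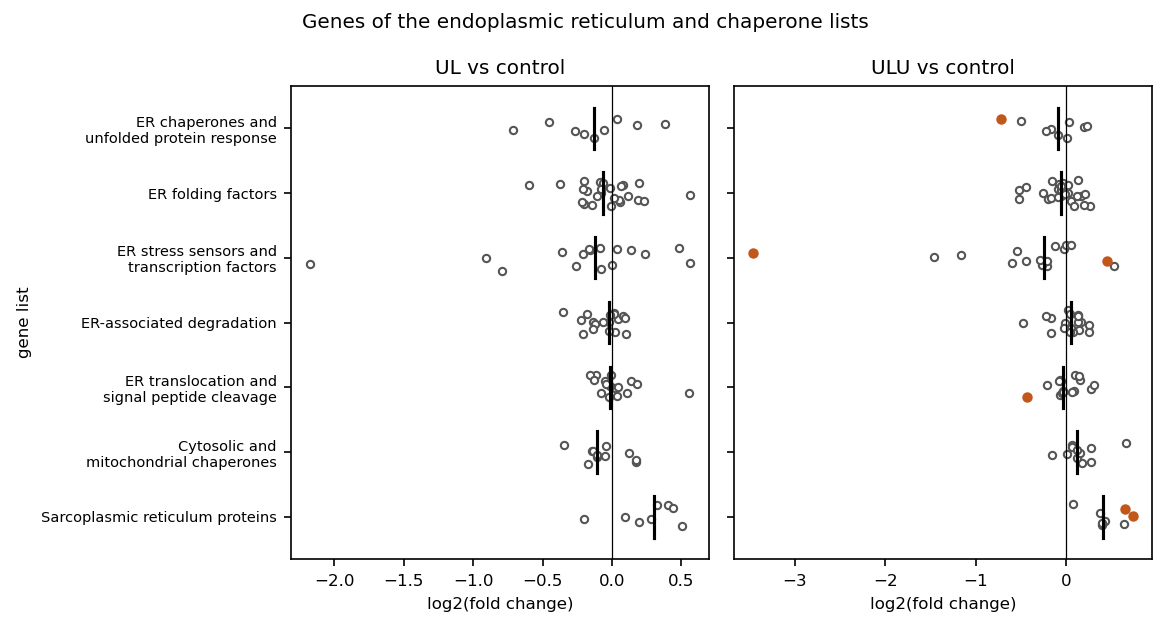
The log2(fold change) in UL vs control and ULU vs control of each gene in the ER, chaperone and sarcoplasmic reticulum lists, with the median of each list as a bar and filled points for an adjusted p under 0.05 (edgeR). ATF3 lies farthest to the left in both comparisons, at -2.17 and -3.46, and the median of the sarcoplasmic reticulum list is at 0.41 in ULU vs control.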

How the data were processed

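The authors trimmed the reads (75 nt, single) with fastp, aligned them with HISAT2 to Sscrofa11.1 and deposited raw counts per Ensembl gene from featureCounts 2.0.1. Their mean count per gene served only to check the columns. No strand setting and no batch were given.

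Gene names were taken from a table of Ensembl identifiers (15029 of 31908 named), and ATF4, DERL1, SEC61G and JPH2 by position in the RefSeq table of the assembly. The counts were analysed with edgeR 4.0.16 (TMM, its filter on low counts, quasi-likelihood F test, diet as the only term, all 17 libraries, Benjamini-Hochberg over 14203 genes, calls at an adjusted p under 0.05). DESeq2 1.42.0 was an alternative. CPM were TMM-scaled, and log2 CPM had a prior count of 2. Correlations with HSPA5 used 100000 two-sided permutations of the libraries across all diets, adjusted over 12 relations. Standard errors were the log2(fold change) divided by the square root of F, with 95% intervals from the t distribution. The trimmed reads behind the counted share came from the read summary of the study. Scripts were tested on simulated data.

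The members, lists and tests were chosen with earlier results of these data known. The genes named were all members, the list genes called in any comparison (or the 3 with the smallest p in ULU vs control), ATF4, DDIT3, ATF3, TRIB3, and the 5 genes most like the members. 3 reads were 0.113 to 0.186 CPM, and the 9 members had 400 to 5575 reads per library, a limit on counting error only. Alternatives changed the tool, libraries, scaling, filter or covariates, or left out 1 library at a time. The mitochondrial settings and the relations in control and UL alone were chosen after the data had been seen.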

Additional observations from a re-analysis of the deposited data

Results flagged for a closer look

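Of 27 sets of CPM values (9 genes in 3 diets), 2 held a library far from the others by Dixon's ratio, and chance alone marks about 1 in 20 sets. HSP90B1 in UL piglet 30 was at 151.7 CPM, with the next UL library at 169.3 CPM and a gap of 0.693 of the range. PDIA6 in UL piglet 29 was at 51.1 CPM, with the next UL library at 42.1 CPM and a gap of 0.669 of the range. Neither gene was called in UL vs control with or without these libraries.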

How the results depend on the processing

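No paired analysis was possible because no piglet number is shared between diets.

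Of the members, 0 in UL vs control were called by edgeR, 2 by DESeq2 on the 2 diets (CALR, XBP1) and 1 by DESeq2 on all libraries (XBP1). In ULU vs control, 1 was called, 2 with DESeq2 on all libraries and 2 with the library total alone (HERPUD1, XBP1), and 0 with edgeR on the 2 diets or with the library total, counted share or mitochondrial share as a covariate. Leaving out 1 library gave 0 to 1, with 0 without ULU piglet 43. In ULU vs UL it was 0 in each setting. Of all genes, 423 of 14203 were called in ULU vs control, 111 with edgeR on the 2 diets, 228 without a filter and 12, 6 and 8 with the 3 covariates. Without 1 library 147 to 799 were called. DESeq2 on the 2 diets and on all libraries called 825 of 11500 and 1069 of 11922 genes in ULU vs control. In UL vs control 0 were called, and with DESeq2 149 of 10209 and 152 of 9465. In ULU vs UL 5 were called, and with DESeq2 246 of 3951 and 252 of 2088. The causes were not tested.

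Some log2(fold change) values that were not called, of members and of ATF4, HSPA8 and HSPD1, changed sign in some settings and were not called there either. MANF in UL vs control was at -0.031 with the library total alone and -0.085 with the mitochondrial covariate. In ULU vs control HSP90B1 was at -0.0020 with edgeR on the 2 diets, -0.16 with the library total alone, -0.0038 with a filter of 1 CPM in 5 libraries and -0.34 with the mitochondrial covariate, which also gave -0.039 for PDIA6, -0.12 for CALR, -0.15 for MANF, -0.23 for HSPA8 and -0.56 for HSPD1. MANF was at -0.12 with the library total alone and -0.010 with the counted share, and ATF4 at 0.0083 without a filter and 0.025 with the library total as a covariate. In ULU vs UL HSP90B1 was at -0.023 with the library total alone and -0.064 with the mitochondrial covariate, and XBP1 at 0.011 and 0.0079 with DESeq2 on the 2 diets and on all libraries, 0.0054 with DESeq2 size factors, 0.012 without a filter, 0.011 with the library total as a covariate and 0.0072 without mitochondrial genes. Without 1 library, MANF ranged from -0.018 to 0.080 in UL vs control and from -0.072 to 0.14 in ULU vs control, HSP90B1 from -0.14 to 0.13 in ULU vs control and from -0.077 to 0.19 in ULU vs UL, PDIA4 from -0.16 to 0.0038, HSPA8 from -0.032 to 0.31, ATF4 from -0.21 to 0.037 in UL vs control and from -0.15 to 0.11 in ULU vs control, and XBP1 from -0.054 to 0.044 in ULU vs UL.

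Of the relations with HSPA5, 6 passed, 5 without removing the diet means (CALR r = 0.38), 4 in control and UL alone (TRIB3 r = -0.19) and 5 to 7 without 1 library, where r ranged from -0.13 to 0.39 for ATF3 and from -0.17 to 0.28 for TRIB3. DNAJB9 did not pass without ULU piglet 42 (r = 0.48, permutation adjusted p = 0.124). Whole muscle, gene models that reach past their genes and 5 or 6 libraries per diet limit what these values show.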
